A study of Mus musculus with 4 samples.

Results

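Genes of the cell cycle and mitosis were examined in RNA from the whole stomach of male mice on single-colour microarrays. A probe was taken where the annotation gave it 1 gene symbol and that symbol began with Mcm, Cdk, Cdc, Cenp, Kif, Bub, Aurk or one of the cyclin names Ccna, Ccnb, Ccnd and Ccne, or was 1 of a short set of proliferation genes such as Top2a, Pcna, Birc5 and Plk1. The name rule took 144 probes, of which 107 had a value on at least 2 arrays and were kept. They stand for 106 of the 13840 genes that a probe with 1 symbol names, among 33012 probes in all. Values on all 4 arrays were present for 90 of the 107, which were compared between strains. Another 10 had 3 values and 7 had 2.

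One group was C57BL/6J, the wild-type inbred strain. Congenic mice of the strain B6.CAST-17 formed the second group and were homozygous; by its name the strain carries a piece of CAST chromosome 17 in a B6 genome. Each strain had 6 mice, combined into 2 pools of RNA from 3 animals each, and each pool was read on 1 array. All mice were male, ate chow and were deprived of food for 4 h before the stomach was frozen. The labels give no age and do not say where the congenic segment begins or ends. The study's title concerns expression of Glp1r and gastric emptying, and the comparison of strains asks which transcripts differ with the congenic segment. Values are signals on a log2 scale. A difference is the congenic mean less the wild-type mean, given ± SE with n = 2 pools per strain. The SE comes from the limma fit, which draws the spread of a probe's own pools towards that of probes of like level. The p-values therefore rest on spread between pools, not between single animals.

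A cell divides after copying its DNA once and sorting the copies to 2 daughters. Cyclins bind and switch on cyclin-dependent kinases (CDKs), CDK inhibitors such as p21 hold them back, and the MCM helicase opens DNA for copying. Centromere proteins, the spindle checkpoint and mitotic kinesins then move the chromosomes apart, and the anaphase-promoting complex ends mitosis. In the stomach, division is mostly in the isthmus of the gastric glands and the basal layer of the squamous forestomach, so these transcripts come from a minority of cells. In RNA of a whole organ, fewer dividing cells and less of a transcript per cell cannot be told apart. The name rule also takes genes with other work, such as transport kinesins and the partners of the small GTPase Cdc42 and the neuronal kinase Cdk5. Of the 107 kept probes, 66 were in role lists of the cell cycle, and 41 were in the other 2 lists, of transport kinesins (13) and of genes taken by name alone (28).

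Genes needed late in the cycle are known to share promoter elements. These are the CCAAT box and the cell cycle homology region (CHR), while S phase genes often hold sites for E2F factors. Promoters of 300 bases (250 before to 50 after the start, the first listed for each gene) came from RefSeq, build GRCm38.p6, and 91 of the 106 genes had one. The letters searched on both strands were CCAAT, then TTTGAA or TTCGAA for the CHR, and TTTCGCGC, TTTGGCGC, TTTCCCGC or TTTGCCGC for E2F. Of 35 members in the lists of cyclins, mitotic kinases and checkpoint, kinetochore, mitotic kinesins and proliferation markers, 19 (54.3%) held both a CCAAT box and a CHR. The share was 7.70% of all 27025 promoters and 5.71% of the 35 members outside the role lists. An E2F form lay in 10 of 56 promoters of role list members (17.9%), in 2.32% of all promoters and in 0 of 35 members outside the lists. A match is a run of letters and was not tested as a site.

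The following promoters show these elements, with matches in capitals. They belong to the B-type cyclin Ccnb2, the kinetochore gene Cenpn (the largest difference in the role lists), the topoisomerase Top2a, the MCM gene Mcm6 (with E2F forms) and Cdkn1a, the only CDK inhibitor here on chromosome 17.
Ccnb2 (chr9:70421505-70421804, minus strand): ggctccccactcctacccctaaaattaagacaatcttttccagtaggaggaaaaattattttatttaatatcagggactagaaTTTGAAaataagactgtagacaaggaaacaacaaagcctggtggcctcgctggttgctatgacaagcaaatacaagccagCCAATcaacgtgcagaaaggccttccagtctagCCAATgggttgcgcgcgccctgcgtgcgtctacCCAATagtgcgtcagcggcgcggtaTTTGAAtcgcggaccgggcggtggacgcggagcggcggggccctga
Cenpn (chr8:116921490-116921789, plus strand): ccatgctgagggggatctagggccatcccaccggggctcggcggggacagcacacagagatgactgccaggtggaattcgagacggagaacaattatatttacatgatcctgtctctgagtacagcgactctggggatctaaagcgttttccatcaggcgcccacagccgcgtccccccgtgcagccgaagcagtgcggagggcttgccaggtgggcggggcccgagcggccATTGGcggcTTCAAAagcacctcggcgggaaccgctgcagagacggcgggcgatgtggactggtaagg
Top2a (chr11:99024140-99024439, minus strand): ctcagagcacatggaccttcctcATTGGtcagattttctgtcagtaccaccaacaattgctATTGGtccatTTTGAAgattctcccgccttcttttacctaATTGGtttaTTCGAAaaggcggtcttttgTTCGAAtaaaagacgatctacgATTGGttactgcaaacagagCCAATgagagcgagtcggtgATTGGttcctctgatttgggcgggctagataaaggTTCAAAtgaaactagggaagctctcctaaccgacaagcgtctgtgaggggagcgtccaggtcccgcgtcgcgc
Mcm6 (chr1:128359656-128359955, minus strand): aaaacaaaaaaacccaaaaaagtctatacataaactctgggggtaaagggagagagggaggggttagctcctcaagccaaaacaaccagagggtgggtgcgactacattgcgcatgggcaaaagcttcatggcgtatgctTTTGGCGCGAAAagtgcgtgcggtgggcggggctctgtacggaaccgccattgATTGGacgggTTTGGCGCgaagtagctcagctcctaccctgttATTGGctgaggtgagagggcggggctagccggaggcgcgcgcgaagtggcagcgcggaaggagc
Cdkn1a (chr17:29090729-29091028, plus strand): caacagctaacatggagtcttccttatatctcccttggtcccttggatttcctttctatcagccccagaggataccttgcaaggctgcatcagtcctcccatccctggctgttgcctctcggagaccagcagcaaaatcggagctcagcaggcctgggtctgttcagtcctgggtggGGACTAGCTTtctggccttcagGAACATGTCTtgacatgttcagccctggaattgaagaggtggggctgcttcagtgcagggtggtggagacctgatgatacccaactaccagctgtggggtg
In Ccnb2, 3 CCAAT boxes begin 87, 54 and 21 bases before the start and a CHR begins 4 bases after it, with another CHR 167 bases before. In Cenpn, 1 CCAAT box on the other strand begins 18 bases before the start and 1 CHR 9 bases before it. Top2a has 6 CCAAT boxes and 4 CHR matches, and Mcm6 has 3 E2F matches, of which 2 overlap, and 2 CCAAT boxes. The Cdkn1a window held none of these letters. Its capitals are 2 matches to the half-site of p53, a factor known to act through Cdkn1a, and this motif was added after the sequence had been read. Such a half-site lay in 8.37% of all promoters.

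**Figure D1:**
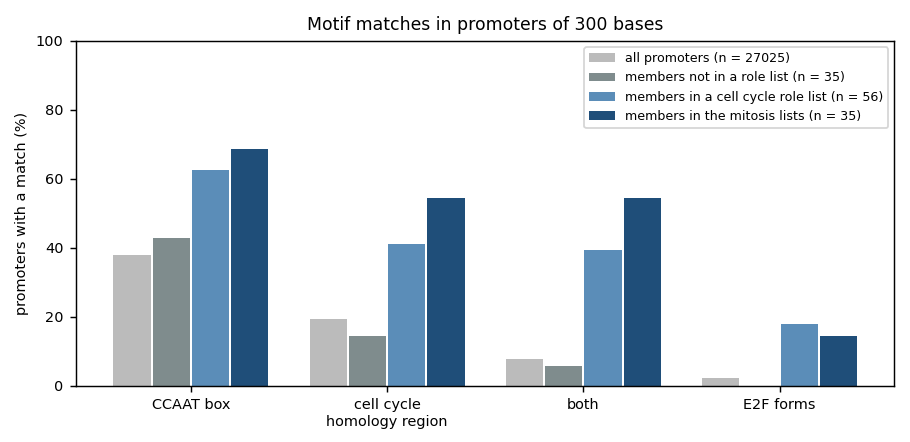
Share of promoters of 300 bases (y axis, %) with at least 1 match to the CCAAT box, the CHR, both, or an E2F form, in 27025 RefSeq promoters, 35 members outside the role lists, 56 in the role lists and, among those, 35 in the mitosis lists. Both elements together stand in 54.3% of the mitosis promoters and 7.70% of all.

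No cell cycle gene changed between the strains beyond the threshold. Of the 90 probes compared, 0 passed an adjusted p of 0.05 in limma, where 0.475% of all 13475 probes compared did (0.289% higher and 0.186% lower in the congenic pools). At an adjusted p of 0.10 the members called were again 0, beside 0.816% of all probes. An unadjusted p under 0.05 was reached by 12 (13.3%), 8 higher and 4 lower in the congenic pools, beside 15.8% of all probes (7.12% higher and 8.66% lower). The 8 became 4 without congenic pool 1, congenic pool 2 or wild-type pool 2, and the 4 became 2 without congenic pool 2. Cdk9 and Cenpc1 were the only 2 members with one under 0.01, beside 4.91% of all probes. The median difference of the members was 0.014, with 48 above 0 and 42 below, and that of all probes was -0.0020. The strains did not overlap for 51 members (56.7%), 25 higher and 26 lower in the congenic pools, beside 49.4% of all probes (23.4% higher and 26.1% lower). The strain difference was larger than the gap between the pools of either strain for 35 of the 90 (38.9%), beside 36.1%. These shares were near those of all probes. Differences ran from -0.61 (Cdk9) to 0.87 (Cdk11b), and 7 members differed by at least 0.5, beside 7.81% of all probes. None of the 90 reached 2-fold (1 on the log2 scale), beside 1.14% of all probes.

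The 2 pools bound these differences more tightly for bright probes than for dim ones. The 95% interval of the difference, from the limma fit, had a median half-width of 0.33, and for 82 of 90 members it lay within a 2-fold change in both directions. For 46 it lay within 0.5. Among 41 members above the median level of all probes (12.81) the median half-width was 0.25, and among the 49 at or below it 0.43. The bright members had a median difference of -0.044 and the dim ones of 0.057, beside -0.012 for all bright probes and 0.016 for all dim ones. The 8 members whose interval reached beyond a 2-fold change were Cenpn, Cenpu, Kif23, Kif3a, Cdk11b, Cdk5rap1, Cdc42ep3 and 1 probe of Cdc42se2. They are not in every case the members with the widest intervals.

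**Figure D2:**
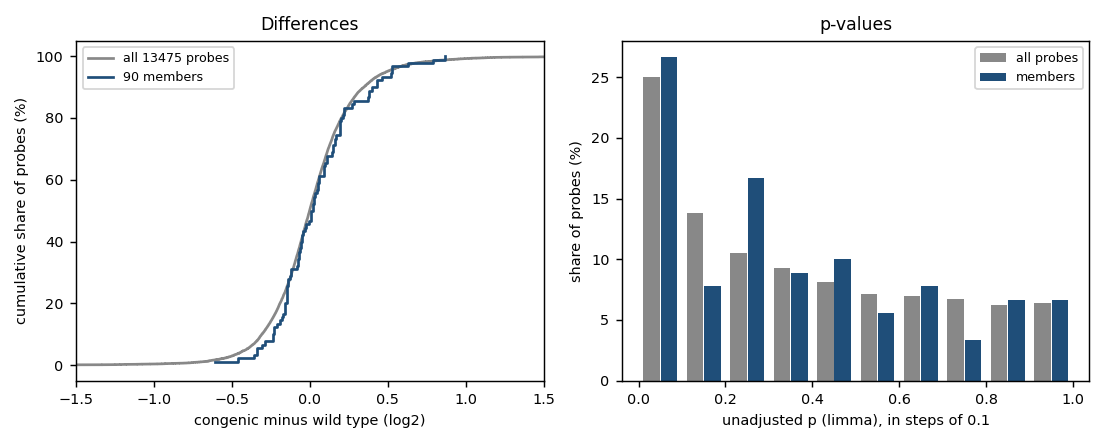
Left, cumulative share (y axis, %) of strain differences (x axis, log2) for all 13475 probes compared and the 90 members; right, share of each set (y axis, %) by unadjusted limma p in steps of 0.1. The curves of the members and of all probes run close together, with medians of 0.014 and -0.0020.

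Replication genes differed little between the strains. Pcna, the sliding clamp of DNA polymerases, read 15.90 and 15.93 in congenic pools 1 and 2 and 15.94 and 15.95 in wild-type pools 1 and 2. Its difference was -0.033 ± 0.068, with a 95% interval of -0.20 to 0.13. Top2a, which untangles DNA in dividing cells, read 12.53 and 12.32 in the congenic and 12.20 and 12.54 in the wild-type pools, and the strains overlapped (0.055 ± 0.16). Of 7 compared members of the licensing list, 0 had an unadjusted limma p under 0.05, beside 15.8% of all probes. The strains overlapped for 6 of them, where 49.4% of all probes did not overlap, and the median difference was 0.0049. Mcm5, a subunit of the helicase ring, read 13.53 and 13.71 in congenic and 13.59 and 13.61 in wild-type pools. Mcm4 and Mcm6, of the same ring, differed by 0.0049 ± 0.089 and -0.082 ± 0.099. Cdc45, which completes the active helicase, was the only one of the 7 without overlap, at 11.16 and 10.99 against 11.34 and 11.27 (-0.23 ± 0.17). Mcm10, an initiation factor, differed by 0.14 ± 0.13. Mcm3ap, which binds MCM but acts mainly in messenger RNA export, differed by 0.20 ± 0.18, with the sign turned without congenic pool 1 (-0.020). Rrm2, the small subunit of the enzyme that makes deoxynucleotides, had values in congenic pool 2 (12.11) and wild-type pool 2 (11.86) and was not tested.

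None of the cyclins passed the threshold. The strains overlapped for none of the 6 compared, where 49.4% of all probes did not overlap. For Ccna2, Ccnd1, Ccnd3 and Ccne1 the nearest pools of the strains lay close together. The congenic values were the lower ones for 5 and the higher ones for Ccnd2. Of the 6 limma fits, 0 gave an unadjusted p under 0.05, beside 15.8% of all probes. Ccnb2, a mitotic cyclin, read 12.55 and 12.64 in the congenic pools and 12.76 and 12.89 in the wild-type pools. That is a difference of -0.23 ± 0.11 (limma adjusted p = 0.3771). Ccna2, the cyclin of S phase and G2, read 12.34 and 12.14 against 12.38 and 12.37 (-0.14 ± 0.13). Ccnd1, a G1 cyclin induced by growth signals, read 14.34 and 14.73 against 14.74 and 14.82. Congenic pool 1 was the low value, and without it the difference of -0.24 ± 0.14 became -0.043. Ccne1, the cyclin of entry into S phase, read 11.00 and 10.96 against 11.30 and 11.03 (-0.19 ± 0.19). Ccnd2, another G1 cyclin, read 15.45 and 15.41 against 15.13 and 15.35 (0.19 ± 0.095). Ccnd3, the third of the D type, lies on chromosome 17 and read 12.30 and 12.22 against 12.34 and 12.31 (-0.067 ± 0.12). The median of the 6 differences was -0.16.

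Of 5 compared members in the list of cell cycle kinases and phosphatases, 1 had an unadjusted limma p under 0.05, beside 15.8% of all probes. That was Cdk3, which read 12.26 and 12.38 in congenic and 12.03 and 11.76 in wild-type pools. It was higher by 0.43 ± 0.15 and did not pass (limma adjusted p = 0.2699). Cdk4, the partner of D-type cyclins, read 15.00 and 14.96 against 15.09 and 15.17 (-0.15 ± 0.076). Cdk7, which activates other CDKs, differed by -0.13 ± 0.13. Cdc25a, a phosphatase that activates CDKs, overlapped between strains because wild-type pool 1 (14.18) lay below the other pools (14.53 to 14.57). Cdk6, the other partner of D-type cyclins, read 10.09 and 10.10 in the congenic pools and 9.33 in wild-type pool 2, with no value in wild-type pool 1. Cdk1, the main mitotic kinase, had no value on any array.

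Cdkn1a encodes p21, which stops the cycle after DNA damage, and it lies on chromosome 17, the chromosome named in the congenic strain. It read 16.04 and 15.87 in congenic pools 1 and 2 and 16.08 and 16.19 in wild-type pools 1 and 2. Both congenic values lay below both wild-type values, by a narrow margin for congenic pool 1. The difference was -0.18 ± 0.090, with a 95% interval of -0.40 to 0.044, and it did not pass (limma adjusted p = 0.3951). Without congenic pool 2 the difference was -0.09, and without congenic pool 1 it was -0.26. Of the other inhibitors compared, Cdkn1c, an imprinted relative of p21, differed by -0.0069 ± 0.073, with an interval of -0.19 to 0.17. Cdkn2b, an inhibitor of Cdk4 and Cdk6, differed by 0.11 ± 0.079 and Cdkn2d, of the same family, by -0.16 ± 0.19. Cdkn2a, the tumour suppressor locus beside Cdkn2b, read 11.26 and 11.38 in the congenic pools and 11.81 in wild-type pool 2, with a blank in wild-type pool 1.

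Chromosome 17 held 6 kept probes, Cdkn1a among them. Of the 5 compared, 0 passed and 0 had an unadjusted limma p under 0.05, beside 0.475% and 15.8% of all probes. The strains did not overlap for 2 (Cdkn1a and Ccnd3, both lower), beside 49.4% of all probes. Cdc42ep3, an effector of Cdc42, read 13.92 in congenic pool 1 and 12.78, 12.95 and 12.84 on the other arrays. Its difference of 0.46 ± 0.34 was -0.11 without congenic pool 1. Cenpq, a kinetochore subunit, differed by 0.057 ± 0.27. Kifc5b, a minus-end kinesin of the spindle, differed by 0.055 ± 0.22, and its value is uncertain because near-identical kinesin genes exist. Cdc5l, a splicing factor, read 15.09 in congenic pool 2, 14.74 and 14.62 in the wild-type pools, and was blank in congenic pool 1. The probes were not examined for overlap with CAST sequence variants.

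**Figure D3:**
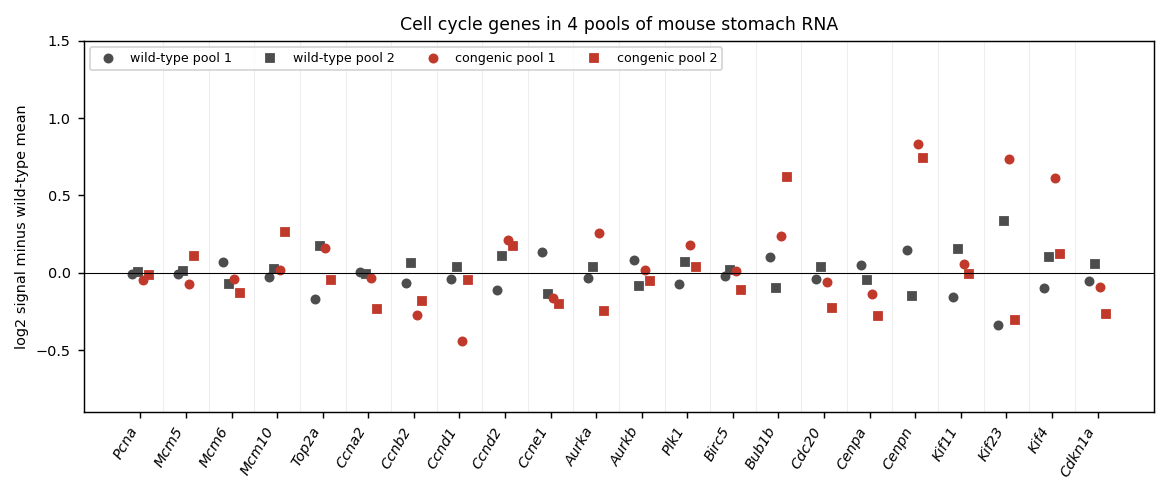
Log2 signal of 22 cell cycle genes in each of the 4 pools, less the mean of the 2 wild-type pools (y axis, log2; red, congenic; grey, wild type; circles, pool 1; squares, pool 2). Pcna lies within 0.05 of the wild-type mean in every pool, while Cenpn and Bub1b lie above the wild-type pools in both congenic pools.

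The list named for mitotic kinases, the checkpoint and passenger proteins also holds Cdca3, Cdca4, Cdca7 and Cdca7l. It was split evenly, with 6 of 12 differences above 0 and a median of -0.0082. Bub1b, the checkpoint protein that delays anaphase, had the smallest p among the 12. It read 14.85 and 15.23 in congenic and 14.71 and 14.51 in wild-type pools, a 1.35-fold difference (0.43 ± 0.14, limma adjusted p = 0.2563). The difference was 0.24 without congenic pool 2 and 0.62 without congenic pool 1. Its checkpoint partner Bub3 read 13.93 and 13.88 against 13.79 and 13.83 (0.097 ± 0.084). Bub1, the kinase of the same checkpoint, read 11.10 and 11.36 in the congenic pools and 11.35 in wild-type pool 1, and was blank in wild-type pool 2.

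Kinases that run mitosis overlapped between the strains, where 49.4% of all probes did not overlap. Aurka, of the spindle poles, read 12.18 and 11.68 in congenic and 11.89 and 11.96 in wild-type pools, so the 2 congenic pools lay on either side of the wild type. Aurkb, of the chromosomal passenger complex, read 12.68 and 12.61 against 12.75 and 12.58 (-0.023 ± 0.12). Plk1, which acts from entry to exit, read 12.26 and 12.12 against 12.01 and 12.15 (0.11 ± 0.13). Birc5, survivin, of the same passenger complex as Aurkb, read 13.92 and 13.80 against 13.89 and 13.93 (-0.044 ± 0.090). Cdca8, the borealin subunit of that complex, was higher without overlap, at 11.92 and 11.93 against 11.86 and 11.66 (0.16 ± 0.14). Cdc20, which activates the anaphase-promoting complex, was lower without overlap, at 13.35 and 13.18 against 13.37 and 13.45 (-0.15 ± 0.11). None of these passed.

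The list named for the anaphase-promoting complex and mitotic exit had 3 compared members. Cdc14b, an exit phosphatase, was higher by 0.27 ± 0.11 (12.79 and 12.81 against 12.57 and 12.50, limma adjusted p = 0.3108). Cdc34, a ubiquitin-conjugating enzyme placed in the same list, was lower without overlap, at 15.43 and 15.44 against 15.66 and 15.54 (-0.16 ± 0.077). Cdc16, a subunit of the complex, differed by 0.023 ± 0.10.

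Centromere genes held 2 of the 5 role list members with an unadjusted p under 0.05, both higher and neither past the threshold. Those 5 are 9.09% of the 55 role list members compared, beside 15.8% of all probes. Cenpc1, which joins centromeric chromatin to the outer kinetochore, read 12.24 and 12.35 in congenic and 11.68 and 11.85 in wild-type pools. This is 1.45-fold (0.53 ± 0.14, limma adjusted p = 0.1910), and the value lay between 0.45 and 0.62 when any 1 pool was left out. Cenpn, which reads the centromeric histone Cenpa, had values of 10.85 and 10.76 against 10.17 and 9.87, or 1.73-fold (0.79 ± 0.24, limma adjusted p = 0.2367). Its signals were dim, and its interval ran from 0.21 to 1.37. Other members went the other way. Cenpa itself read 13.57 and 13.43 against 13.76 and 13.66 (-0.21 ± 0.10), and Cenpx, a histone-fold partner of Cenps, 15.42 and 15.44 against 15.55 and 15.64 (-0.16 ± 0.074). Of the 9 compared, 5 differences were above 0, and the median of 0.057 turned to -0.062 without congenic pool 1 and to -0.081 without wild-type pool 1.

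All 7 compared mitotic kinesins had differences above 0, where 49.6% of all probes did. In limma 0 of the 7 had an unadjusted p under 0.05, beside 15.8% of all probes. The list's median was 0.15, and 0.055 without congenic pool 1. Kif4, a chromosome-bound motor, read 11.02 and 10.53 in congenic and 10.31 and 10.51 in wild-type pools (0.37 ± 0.26, and 0.12 without congenic pool 1). Kif22, another, read 10.97 and 10.79 against 10.58 and 10.77 (0.21 ± 0.20). Kif18a, which dampens chromosome movement, read 10.98 and 10.97 against 10.83 and 10.82 (0.15 ± 0.18). Kif20a, a motor of cell separation, overlapped between strains (0.091 ± 0.14). Kif23, another, had the widest spread, with 12.15 and 11.11 in congenic pools and 11.08 and 11.75 in wild-type pools. Kif11, which pushes the spindle poles apart, differed by 0.026 ± 0.21. All 7 read below the median level of all probes, where differences above 0 made up 52.0% of all probes.

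**Figure D4:**
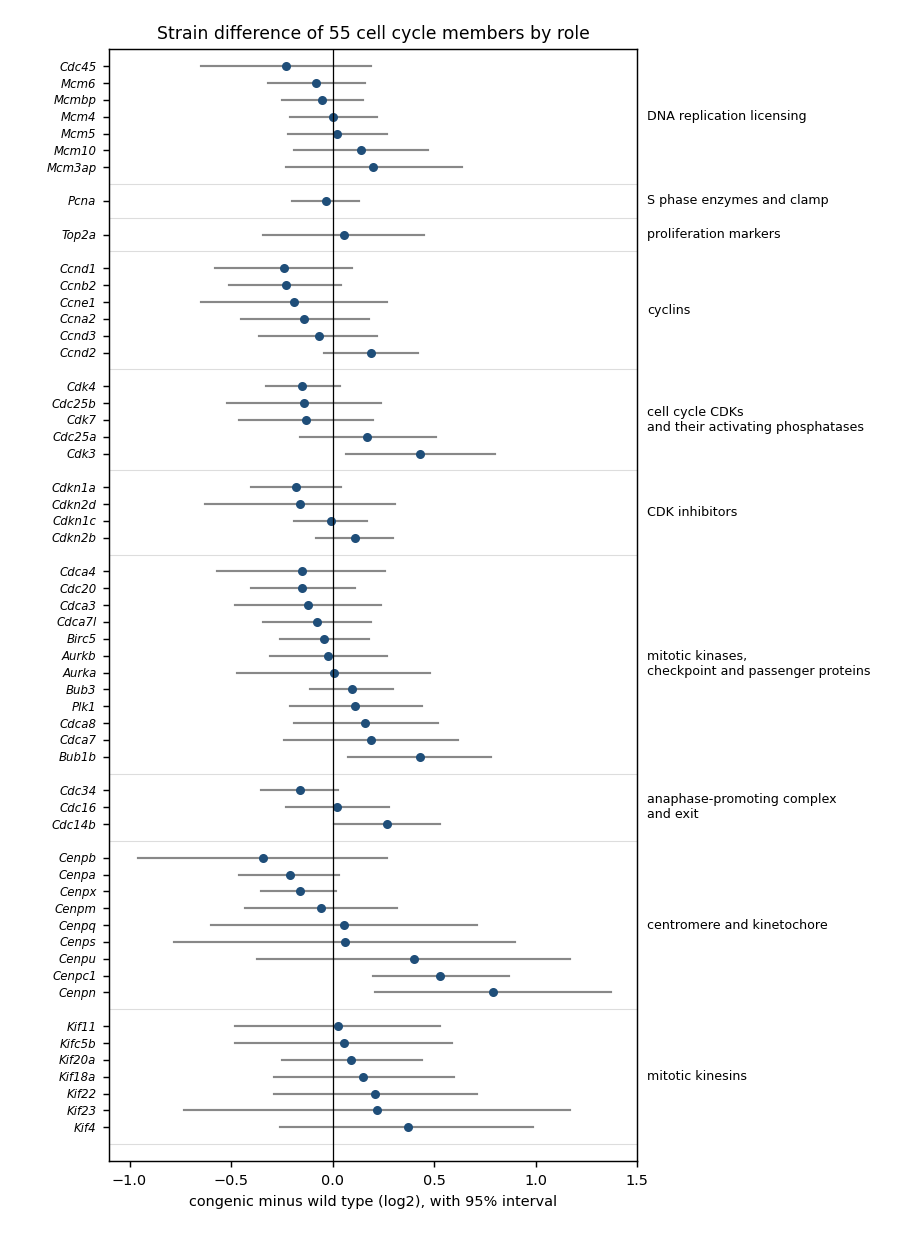
Strain difference (x axis, log2; points) with its 95% interval from the limma fit (lines) for 55 members in the cell cycle role lists, grouped by role. The intervals of 5 genes (Cenpn, Cenpc1, Bub1b, Cdk3 and Cdc14b) lie above 0 and none lies below it, before adjustment for the number of probes tested.

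Among 25 compared probes taken by name alone, limma gave 7 (28.0%) an unadjusted p under 0.05, 3 higher and 4 lower, beside 15.8% of all probes, and 0 passed. Cdk9, the kinase that releases paused RNA polymerase, had the smallest p of all members. It read 12.26 and 12.07 in congenic and 12.65 and 12.91 in wild-type pools (-0.61 ± 0.14, limma adjusted p = 0.1790). Cdcp1, a surface glycoprotein of epithelia with no role in the cycle that its name shares, read 14.94 and 14.99 against 14.72 and 14.45 (0.38 ± 0.11). Cdk2ap1, which binds Cdk2, read 13.28 and 13.19 against 13.48 and 13.66 (-0.34 ± 0.11). Cdc42bpb, a kinase of the actin skeleton, differed by -0.46 ± 0.17, and by -0.24 without congenic pool 2.

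The gene Cdc42se2, a small effector of Cdc42, had 2 probes. One read 12.86 and 13.25 against 12.60 and 12.26 (0.63 ± 0.18). The other read 16.10 and 16.20 against 16.16 and 15.70 and overlapped between strains (0.22 ± 0.15). Cdk5rap1, an enzyme that modifies mitochondrial transfer RNA, differed by 0.52 ± 0.21 (limma adjusted p = 0.3108). Cdk11b, a kinase linked to RNA splicing, read 13.19 and 13.05 in congenic and 13.05 in wild-type pool 2, but 11.44 in wild-type pool 1. Its difference of 0.87 ± 0.48 was 0.070 without wild-type pool 1. Without wild-type pool 2 it was 1.68 and was the single member to pass (limma adjusted p = 0.007732).

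Transport and other kinesins, which carry organelles and vesicles, had a median of -0.029. In limma 0 of the 10 had an unadjusted p under 0.05, beside 15.8% of all probes. Kif3a, a motor of cilia, read 12.14 in congenic pool 1 and 11.43, 11.18 and 11.33 on the other arrays (0.53 ± 0.26), and its difference was 0.17 without congenic pool 1. Kifc2 read 11.34 and 11.26 in congenic and 11.48 and 11.84 in wild-type pools (-0.36 ± 0.18). Kifc3 was also lower without overlap (-0.31 ± 0.17), and Kifbp, a kinesin-binding protein, higher (0.19 ± 0.12).

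Of the kept probes, 17 had 2 or 3 values. Each of the 7 with 2 values had 1 in each strain. The kept members had 100 and 104 values in congenic pools 1 and 2 and 100 in each wild-type pool. Mcm2, a further helicase subunit, read 9.38 in congenic pool 2 and 9.64 in wild-type pool 1. Cenpo, a kinetochore subunit, read 9.93 and 11.48 in the congenic pools and 9.77 in wild-type pool 2. A further 37 probes of the name rule had fewer than 2 values and were not kept: 24 had none, among them Tyms, Cdc6 and Kif2c, and 13 had 1, among them Rrm1 and Cdkn1b. A blank is not a zero here, since the rule behind it is not known. Mki67 and Ccnb1 were named by no probe with 1 symbol and so were not analysed here.

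Pathway genes outside the name rule also held none past the threshold. Of a list of 131 such genes, fixed by function, 82 were compared, 0 passed, and limma gave 9 (11% of them) an unadjusted p under 0.05, of which 2 were higher and 7 lower, beside 15.8% of all probes. The strains did not overlap for 13 higher and 28 lower (50% of the 82), beside 49.4% of all probes (23.4% higher and 26.1% lower). The members had 25 and 26, and the difference between these splits was not tested. The median difference was -0.046, with 35 above 0 and 47 below. Fzr1, the late activator of the anaphase-promoting complex, read 13.10 and 13.31 in congenic and 13.68 and 13.67 in wild-type pools (-0.47 ± 0.11, limma adjusted p = 0.1773). Anapc7, a subunit of that complex, read 11.16 and 11.00 against 11.57 and 11.73 (-0.58 ± 0.17). Stag2, a cohesin subunit that holds sister chromatids together, read 11.42 and 11.51 against 10.76 and 10.86 (0.65 ± 0.17). Pkmyt1, a kinase that restrains Cdk1, lies on chromosome 17 and read 10.82 and 11.17 against 11.60 and 11.68 (-0.64 ± 0.19, limma adjusted p = 0.2255). Rfc4, of the complex that loads Pcna, differed by -0.37 ± 0.11, and Pttg1, securin, by -0.26 ± 0.080.

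Promoter elements and strain differences can be set side by side. The 21 compared members with both a CCAAT box and a CHR had a median difference of 0.055, with 13 above 0 and 8 below, from -0.23 to 0.79. Members with neither, 31 in number, had a median of -0.044, with 15 above 0 and 16 below. For 9 members with an E2F form the median was 0.024. In each of the 3 sets 0 passed in limma, beside 0.475% of all probes. An unadjusted limma p under 0.05 was reached by 2 of 21, 4 of 31 and 0 of 9, beside 15.8% of all probes. Promoter content was not tested against the differences.

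The samples carried the stomach's own transcripts and differed in many of those listed as markers of exocrine pancreas, liver and skeletal muscle. Of 16 listed symbols of stomach epithelium, 11 were compared, with a list mean of at least 17.72 on every array. The limma fit put 0 of them past the threshold. It gave 3 (27.3%) an unadjusted p under 0.05, all lower in the congenic pools, beside 15.8% of all probes. Markers of isthmus and basal cells, where division takes place, had 0 of 9 past the threshold. In limma 1 of the 9 (Krt5, 11.1%) had an unadjusted p under 0.05, beside 15.8% of all probes. The list means were 13.86 and 13.88 in congenic and 13.95 and 13.89 in wild-type pools. Stmn1, abundant in dividing cells, differed by 0.0084 ± 0.074, and Krt5, a basal keratin, by -0.24 ± 0.093. Of 13 exocrine pancreas markers, 10 passed the adjusted threshold in limma, all higher in the congenic pools, beside 0.475% of all probes, and 11 of the 13 differences were above 0. Clps (-0.086) and Pnliprp2 (-0.22) were below 0. The list means were 15.92 and 15.85 against 14.25 and 14.23. All 7 liver markers had differences above 0 and 2 passed (list means of 14.08 and 14.07 against 13.20 and 13.25). The bright Apoa1 and Ttr among them differed by only 0.055 and 0.05. All 8 skeletal muscle markers were lower without overlap and 3 passed (12.64 and 12.67 against 13.71 and 13.83). Of 7 leukocyte markers, 4 differences were below 0 and 1 passed, as lower. Of 9 smooth muscle markers, 7 differences were below 0 and 0 passed. In limma 3 of the 9 (33.3%) had an unadjusted p under 0.05, all lower, beside 15.8% of all probes. The tissue that these marker transcripts came from was not tested, nor was the part of these tissues in the members' values.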

How the data were processed

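The deposited table holds 1 value per probe for each of 4 arrays, read as log2 signals because of their range. How the authors normalized them and left blanks is not given in the sources used here. No depth exists for arrays, so the number of arrays limits precision. Strains came from the sample titles. Probes were named through the platform's annotation table, and chromosomes through RefSeq (GRCm38.p6).

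All 13475 probes with 4 values entered limma 3.58.1 (R 4.3.3; lmFit and eBayes with trend, with 2 degrees of freedom from the residuals and 3.97 from the prior). Tests were two-sided, adjusted by Benjamini-Hochberg over all probes, with a threshold of 0.05. The script was tested on simulated data. Members, lists and tests were chosen with earlier results of these data known. Named genes are Cdkn1a, chromosome 17 members, up to 4 per role list by p, standard proliferation genes, the 5 largest differences each way, and 6 pathway genes by p. Others were picked with their values in view (Ccne1, Cdk5rap1, Cdk6, Cdkn2a, Cenpo, Cenpu, Kif11, Kif23, Mcm2, Mcm4, Mcm5, Stmn1, Krt5 and the genes with under 2 values). Alternatives were a block for pool number, no variance trend, arrays centred or quantile-normalized, bright probes only, each pool left out, 1 blank allowed, another threshold, 1 probe per gene, role list members only, and other promoter sets or windows. Figures used matplotlib 3.10.9.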

Additional observations from a re-analysis of the deposited data

How the results depend on the processing

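No member passed under any alternative but 1: without wild-type pool 2, the number of members higher in the congenic pools was 1 (Cdk11b). Leaving out 1 pool gave 0 to 1 members higher and 0 lower past the threshold. With an unadjusted p under 0.05 it gave 4 to 8 higher and 2 to 5 lower, against 8 and 4. For pathway genes outside the rule it gave 1 to 4 higher and 2 to 6 lower, against 2 and 7. With the pool number as a replicate block, 0 members passed, 6 were higher and 4 lower at an unadjusted p under 0.05, and the block changed no call of a named gene. Calls among all probes went from 64 to 35. The labels do not say that pool numbers pair the strains, and deviations of same-numbered pools correlated at -0.0643 over probes. Over bright probes alone, limma gave 2 of 41 members as higher and 2 as lower at an unadjusted p under 0.05. Of all bright probes, 19.7% reached that level in either direction. Among 33 pathway genes, 0 were higher and 3 lower at the same level. The cause of the smaller counts was not tested. Quantile normalization left 1 pathway gene higher.

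The members' median of 0.014 was -0.044 over bright probes and lay between -0.031 and 0.016 when a pool was left out. That of pathway genes (-0.046) was 0.0084 over bright probes and -0.092 to 0.0025. The median of the cyclins stayed below 0 (-0.18 to -0.025) and that of the mitotic kinesins above 0 (0.055 to 0.25) in every alternative that could be run; no mitotic kinesin was bright. Signs of small differences turned when a pool was left out, with ranges of -0.24 to 0.26 for Aurka (-0.0045 after quantile normalization), -0.11 to 0.064 for Aurkb, -0.11 to 0.019 for Birc5, -0.12 to 0.23 for Top2a, -0.020 to 0.43 for Mcm3ap, -0.045 to 0.091 for Cdc16, -0.021 to 0.37 for Cdc25a, -0.042 to 0.028 for Cdkn1c, -0.35 to 0.030 for Cdkn2d, -0.20 to 0.31 for Cenpq, -0.063 to 0.25 for Kif20a, -0.23 to 0.34 for Kifc5b, -0.11 to 1.02 for Cdc42ep3 and -0.0052 to 0.45 for the second probe of Cdc42se2. The cause was not tested. Within the 100 bases around the start, 17.6% of member promoters held both CCAAT and CHR (26.4% in 300 bases). A CHR lay in 25.3% (30.8%), a CCAAT box in 30.8% (54.9%) and an E2F form in 4.4% (11%). Of all promoters, 0.884% held both in the shorter window (7.70% in 300 bases). A CHR lay in 5.29% of them (19.4%), a CCAAT box in 13.9% (37.9%) and an E2F form in 0.825% (2.32%).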
